A study of Mus musculus with 32 samples.

Results

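The genes described are 10 receptors and bridging molecules through which macrophages bind apoptotic cells or by which tissue-resident macrophages are known: Timd4, Mertk, Axl, Gas6, Mfge8, Stab1, Cd163, Folr2, Lyve1 and Marco. Each was found by its symbol among the probe sets that the platform annotation ties to 1 gene, and the probe set of highest mean stood for the gene. The HT_MG-430_PM chip measured 9 of the 10, among 17097 genes in all, and Axl was not matched to a single-symbol probe set there. The Mouse Gene 2.0 ST chip measured all 10, among 22180 genes. On the first chip Gas6 and Lyve1 each had 2 probe sets, and the other members had 1.

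RNA of mouse tumour-associated macrophages was hybridised to 32 arrays in 12 groups, as 3 experiments that are described apart. The tumour model experiment held CD11b+ cells enriched on magnetic beads, 3 arrays from neuroblastomas that arise spontaneously in the peritoneum of Th-MYCN transgenic mice and 3 from EG7 tumours of WT hosts. EG7, grown as a transplant, derives from T cells of a mouse thymoma. The host experiment held bead-enriched CD11b+ cells from EG7 tumours of Myd88-/- hosts and of WT hosts, with 5 arrays each. The sort experiment held 2 flow-sorted populations of EG7 tumours: A was CD11b+, Ly6G-, Ly6C+ and MHCII-, and C was CD11b+, Ly6C- and MHCII+. Each population came from hosts with TNFR1-/- and Myd88 flox/flox with Tie2-Cre together (double KO), from Myd88 flox/flox Tie2-Cre hosts (Myd88 cKO), from TNFR1-/- hosts and from WT hosts, with 2 arrays per group. The labels name the last hosts WT only, without a floxed allele or Cre. Tie2-Cre acts in endothelium and in blood-forming cells, so the deletion is not particular to macrophages, and the tumour cells keep their own copies of both genes. No label states that each array of a group is a separate mouse. The p-values below therefore rest on array-to-array spread, part of which may be technical.

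Dying cells expose phosphatidylserine, and macrophages recognise it in several ways. TIM-4, the product of Timd4, binds the lipid directly and tethers the corpse. Gas6 bridges the lipid to the receptor kinases Mertk and Axl, and Mfge8 bridges it to integrins of the alpha-v family. Stabilin-1, encoded by Stab1, binds phosphatidylserine and takes up modified proteins. Cd163 clears haemoglobin bound to haptoglobin, Folr2 encodes folate receptor beta, Lyve1 a hyaluronan receptor, and Marco a class A scavenger receptor for bacteria and particles. Timd4, Folr2 and Lyve1 are widely used to mark long-lived resident macrophages in tissues, and Timd4 is high in macrophages of the peritoneal cavity.

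Promoter sequences of 9 members were matched in the RefSeq table of build GRCm38.p6, which gives 250 bases before and 50 bases after each start. Lyve1 had no entry. The sequences below, read 5′ to 3′ on the gene's strand, are those of Mertk, Axl, Stab1 and Folr2, which were lower in sorted population A than in population C, and of Mfge8 and Marco, which differed between Myd88-/- and WT hosts. Capitals mark matches, on either strand, to GAGGAA (the core of a PU.1 site), TGCTGA (part of a MAF recognition element) or GGG and TTTCC with any 2 bases between them (an NF-kB site). The pattern of an interferon-stimulated response element, GAAA and again GAAA with any 2 bases between, was also searched.
Mertk (chr2:128698665-128698964, plus strand): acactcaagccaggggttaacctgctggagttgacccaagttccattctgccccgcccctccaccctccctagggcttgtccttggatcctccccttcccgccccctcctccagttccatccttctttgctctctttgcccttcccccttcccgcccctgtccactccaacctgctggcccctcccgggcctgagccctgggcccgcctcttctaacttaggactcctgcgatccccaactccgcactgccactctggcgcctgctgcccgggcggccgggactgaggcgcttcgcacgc
Axl (chr7:25788684-25788983, minus strand): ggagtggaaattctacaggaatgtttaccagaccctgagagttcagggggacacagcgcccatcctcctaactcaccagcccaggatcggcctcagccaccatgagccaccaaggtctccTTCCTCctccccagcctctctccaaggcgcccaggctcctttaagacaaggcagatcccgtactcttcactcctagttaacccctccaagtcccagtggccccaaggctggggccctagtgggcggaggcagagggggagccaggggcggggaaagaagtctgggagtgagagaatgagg
Stab1 (chr14:31168592-31168891, minus strand): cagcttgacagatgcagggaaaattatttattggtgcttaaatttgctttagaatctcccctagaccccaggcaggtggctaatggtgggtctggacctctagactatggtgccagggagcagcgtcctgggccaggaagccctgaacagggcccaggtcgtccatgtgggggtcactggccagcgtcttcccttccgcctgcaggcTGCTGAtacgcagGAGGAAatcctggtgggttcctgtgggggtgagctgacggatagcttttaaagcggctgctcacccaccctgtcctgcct
Folr2, upstream start (chr7:101857141-101857440, minus strand): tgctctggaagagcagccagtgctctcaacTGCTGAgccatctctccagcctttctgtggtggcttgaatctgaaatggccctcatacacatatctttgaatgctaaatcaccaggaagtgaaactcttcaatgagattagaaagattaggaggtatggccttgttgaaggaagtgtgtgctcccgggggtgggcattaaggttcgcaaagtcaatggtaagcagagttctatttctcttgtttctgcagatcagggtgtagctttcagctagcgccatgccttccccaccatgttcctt
Folr2, downstream start (chr7:101845282-101845581, minus strand): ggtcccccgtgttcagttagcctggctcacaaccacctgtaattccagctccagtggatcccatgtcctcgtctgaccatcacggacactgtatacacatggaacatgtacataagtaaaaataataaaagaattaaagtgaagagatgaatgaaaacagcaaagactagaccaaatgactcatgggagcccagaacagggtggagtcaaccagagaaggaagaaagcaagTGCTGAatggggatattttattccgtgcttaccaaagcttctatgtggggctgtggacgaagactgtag
Mfge8 (chr7:79149011-79149310, minus strand): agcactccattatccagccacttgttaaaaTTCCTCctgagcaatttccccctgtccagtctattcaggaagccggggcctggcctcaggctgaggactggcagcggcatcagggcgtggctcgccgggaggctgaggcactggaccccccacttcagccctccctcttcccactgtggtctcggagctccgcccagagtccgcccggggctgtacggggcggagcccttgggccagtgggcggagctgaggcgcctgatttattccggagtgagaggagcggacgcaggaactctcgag
Marco (chr1:120504975-120505274, minus strand): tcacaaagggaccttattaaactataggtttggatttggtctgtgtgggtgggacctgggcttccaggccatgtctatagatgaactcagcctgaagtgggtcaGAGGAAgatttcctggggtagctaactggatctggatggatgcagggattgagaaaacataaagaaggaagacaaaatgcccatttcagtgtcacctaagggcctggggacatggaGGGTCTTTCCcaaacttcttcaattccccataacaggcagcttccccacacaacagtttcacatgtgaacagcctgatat
No match overlapped another. Among all 32851 promoters of this length, 28.3% held GAGGAA, 19.5% held TGCTGA, 1.6% held the NF-kB pattern and 3.4% the interferon pattern. Marco held the NF-kB pattern, from 30 bases before its start, and 1 GAGGAA. Stab1 held 1 TGCTGA and 1 GAGGAA. Both starts of Folr2 held 1 TGCTGA each. Axl and Mfge8 held 1 GAGGAA each, and Mertk held none of the 4 patterns. Of the promoters not printed, that of Timd4 held 2 TGCTGA and those of Gas6 and Cd163 held none of the 4. A match describes these letters only and is not evidence of a bound site.

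Values are log2 signals, normalized by the authors with RMA. A gene was called when its adjusted p fell under 0.05 in limma, after Benjamini-Hochberg adjustment across every gene tested in that comparison. Values after ± are standard errors of a log2 difference, unless SD is named. Levels of different genes rest on different probes and are not compared. The deleted gene was read as a check of the labels. Myd88 read 7.47 to 7.83 in Myd88-/- hosts, against 8.11 to 8.57 in WT hosts. It read 7.49 to 8.76 on the 8 sorted arrays with the deletion, against 9.22 to 10.05 on the 8 without it. The highest of these readings with the deletion came from C of double KO hosts, at 7.97 to 8.76, against 7.49 to 7.53 in C of Myd88 cKO hosts. Tnfrsf1a read 7.51 to 8.20 on the 4 TNFR1-deficient arrays of A, against 7.95 to 8.30 on the other 4. In C it read 7.55 to 7.87 against 7.81 to 8.55. Its ranges overlapped in both populations. Tnfrsf1a was not called for averaged TNFR1 loss in A (-0.34 ± 0.17, adjusted p = 0.39) or in C (-0.54 ± 0.17, adjusted p = 0.233). Its level thus does not check the TNFR1 labels. The position of the Tnfrsf1a probe set relative to the deleted part was not stated in the labels. All 9 measured macrophage markers (Csf1r, Adgre1 and others) lay above the 40th percentile of their array on every array. Correlation of an array with its own group ran from 0.931 to 0.994, and the A WT pair had the lowest value. In these bulk samples, fewer cells of a type and less RNA per cell cannot be told apart.

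In the tumour models, the bridging molecule Gas6 was higher in neuroblastoma than in EG7 and the bridging molecule Mfge8 was lower, while the tethering receptor Timd4 was read above the low end of the chip in neuroblastoma alone. Gas6 and Mfge8 were the 2 called of 8 members other than Timd4, against a background of 14.7% of the 12576 genes tested. The other 6 members had positive differences that missed the threshold. The median difference of the 9 was 2.06, against -0.01 over all genes tested. These 9 include Timd4, whose difference was built into the filter, so this median is a description only. The groups did not overlap for 7 of the 8 members other than Timd4, against 36.1% of all genes tested.

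Timd4 read 6.15, 8.03 and 8.28 in neuroblastoma, against 3.08, 3.02 and 3.16 in EG7. The lowest neuroblastoma array was thus about 3 log2 units above the highest EG7 array. The EG7 values lay below the 40th percentile of their arrays (3.45 to 3.48), so they give only an upper bound on its level there. Timd4 passed the filter on low values only through the neuroblastoma arrays and had to differ once tested, so its levels are given as a description, with no test. Gas6 read 9.98, 8.16 and 9.39 in neuroblastoma, against 7.38, 7.39 and 6.57 in EG7, with no overlap. Its difference was 2.06 ± 0.48, or 4.18-fold (adjusted p = 0.0343). The second Gas6 probe set did not show this difference. It read 3.10, 3.26 and 3.31 in neuroblastoma, against 3.00, 3.21 and 3.29 in EG7, and lay below the 40th percentile on every array of the chip. Over the 12 alternative fits, the Gas6 difference ran from 1.06 to 2.57. Mfge8 read 9.70, 9.01 and 9.66 in neuroblastoma, against 10.50, 11.73 and 10.85 in EG7. All 3 neuroblastoma arrays were lower, with a difference of -1.57 ± 0.36 (adjusted p = 0.0312). The 2 bridging molecules thus differed in opposite directions. Gas6 was called in 5 of 12 fits and lost its call without any 1 array except NB replicate 2 (adjusted p = 0.0746 to 0.107). Mfge8 was called in 4 of 12 and lost its call without any 1 array (adjusted p = 0.0502 to 0.0793).

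**Figure D1:**
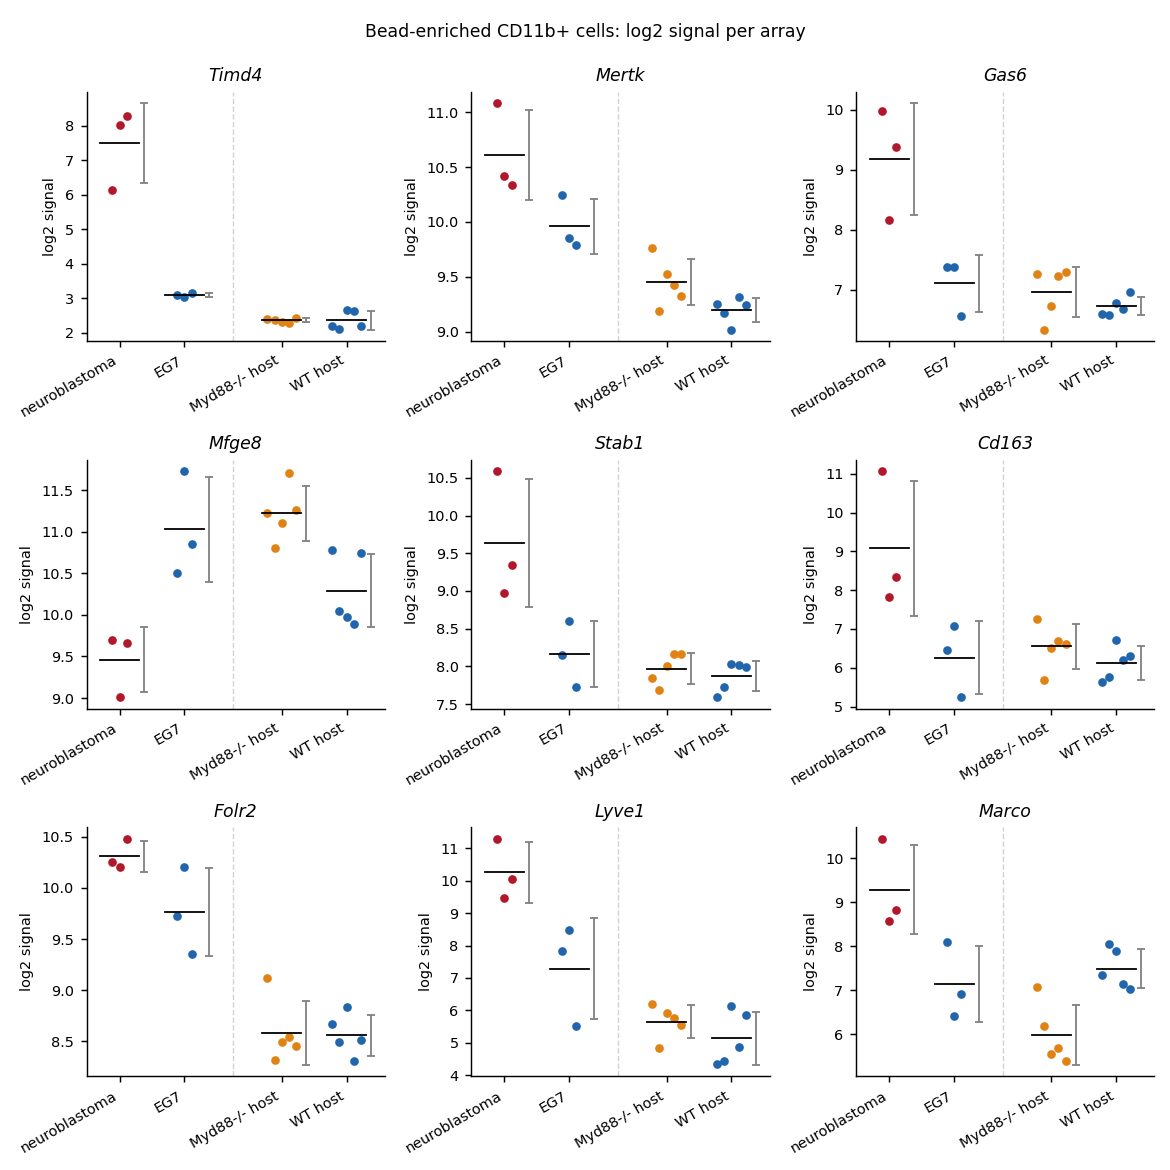
Log2 signal of the 9 members measured on bead-enriched CD11b+ cells. Each point is 1 array, black lines are group means and grey bars are the SD (n = 3 for neuroblastoma and EG7, n = 5 for Myd88-/- and WT hosts), and each panel has its own y axis. The dashed line separates the experiments, which are not compared with each other. Timd4 is at 6.15 or above in neuroblastoma and at 3.16 or below in EG7, and Mfge8 is higher in every Myd88-/- array than in every WT array.

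The receptor kinase Mertk, which signals for engulfment, read 11.08, 10.42 and 10.34 in neuroblastoma, against 10.25, 9.85 and 9.79 in EG7. These did not overlap, but the difference of 0.65 ± 0.25 was not called (adjusted p = 0.136). Stab1 read 10.59, 8.97 and 9.35 in neuroblastoma, against 8.15, 8.6 and 7.73 in EG7, a difference of 1.48 ± 0.44 (adjusted p = 0.0731). Cd163 read 11.07, 7.83 and 8.35 in neuroblastoma, against 6.47, 7.08 and 5.24 in EG7 (2.82 ± 0.89, adjusted p = 0.0844). Neuroblastoma replicate 1 had the highest level of Cd163, Stab1, Mertk, Gas6, Lyve1 and Marco, and the lowest of Timd4 among the neuroblastoma arrays. Lyve1 read 11.29, 9.45 and 10.04 in neuroblastoma, against 7.84, 8.48 and 5.52 in EG7 (2.98 ± 0.82, adjusted p = 0.0573). Marco read 10.44, 8.58 and 8.82 in neuroblastoma, against 8.09, 6.41 and 6.91 in EG7 (2.14 ± 0.61, adjusted p = 0.0621). Folr2 was the member whose groups overlapped, with 10.25, 10.20 and 10.48 in neuroblastoma, against 9.73, 10.20 and 9.35 in EG7 (0.55 ± 0.24, adjusted p = 0.179). At an unadjusted p under 0.05, 7 of the 8 members other than Timd4 passed, against 30.1% of all genes tested. Without NB replicate 2, Stab1, Cd163, Lyve1 and Marco were called beside Gas6, and Mfge8 was not. Without any other 1 array, none of the 8 was called.

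Of 18 tested genes on a list of other resident macrophage genes, 7 rose in neuroblastoma and none fell, and the median difference of the 19 measured was 1.68. Spic, a transcription factor of iron-recycling macrophages, rose by 3.6 ± 0.16, the iron exporter gene Slc40a1 by 4.68 ± 0.25 and the lectin gene Fcna by 4.53 ± 0.51. On the list of other recognition receptors and bridging molecules, 2 of 18 rose and 1 fell, with a median of 0.25. Stab2, the stabilin-1 relative, rose by 3.6 ± 0.26, the integrin chain gene Itgb5 rose by 0.91 ± 0.15, and the engulfment receptor gene Megf10 changed by -1.07 ± 0.18. Of 16 genes of engulfment signalling and digestion, 1 rose, Rubcn (0.58 ± 0.14), which takes part in LC3-associated phagocytosis, with a median of 0.28. Of 11 other scavenger receptors, 1 rose, Colec12 (2.89 ± 0.18), with a median of 0.03. Markers of other cells moved alongside. Blood endothelium markers averaged 7.56 to 8.70 in neuroblastoma, against 6.32 to 6.88 in EG7, with 7 of 10 higher. Lymphatic endothelium markers averaged 4.55 to 5.39 in neuroblastoma, against 4.99 to 5.08 in EG7, and of 4 tested Reln was higher (1.54 ± 0.21) and Pdpn lower (-3.57 ± 0.34). Fibroblast markers averaged 7.67 to 8.91 in neuroblastoma, against 6.63 to 7.26 in EG7, with 3 of 8 tested higher. Markers of neuroblastoma cells and sympathetic neurons averaged 7.63 to 8.58 in neuroblastoma, against 3.81 to 3.90 in EG7, with 8 of 9 higher. Markers of T lymphocytes and the EG7 line averaged 4.33 to 5.34 in neuroblastoma, against 7.03 to 7.31 in EG7, with 6 of 9 tested lower. Markers of peritoneal resident macrophages averaged 5.93 to 7.05 in neuroblastoma, against 4.89 to 4.94 in EG7. Of 6 tested, 2 rose, Gata6 (2.68 ± 0.41) and Prg4 (5.22 ± 0.81). Of 7 measured, 6 lay above the 40th percentile on each neuroblastoma array, against 3 to 5 on the EG7 arrays. Of the 19 other resident macrophage genes, 17 to 18 lay above that percentile in neuroblastoma, against 15 to 17 in EG7. For other scavenger receptors it was 11 of 11 against 10, and for neuroblastoma and sympathetic neuron markers 9 of 9 against 7 to 8. Some genes of these lists may thus have passed the filter only through neuroblastoma, as Timd4 did, which would build in a rise. General macrophage markers averaged 11.12 to 11.54 in neuroblastoma, against 11.5 to 11.6 in EG7, with 1 of 9 lower, Adgre1 (-0.92 ± 0.17). B lymphocyte markers averaged 3.55 to 6.47 in neuroblastoma, highest on replicate 2, against 3.72 to 4.0 in EG7. Monocyte markers averaged 7.61 to 10.34 in neuroblastoma, also highest on replicate 2, against 9.75 to 10.43 in EG7. Neutrophil markers averaged 6.96 to 8.30 in neuroblastoma, against 6.45 to 9.21 in EG7. The part of these cells in the members' differences was not tested.

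Loss of Myd88, the adaptor of most Toll-like receptors and of the interleukin-1 receptor family, was measured in the host experiment. Of the 8 members tested, 2 were called, 1 in each direction, against 1.48% of the 11916 genes tested. At an unadjusted p under 0.05 there were 3, against 12.5% of all genes tested. Mfge8 was higher and the scavenger receptor Marco lower in Myd88-/- hosts. Mfge8 read 11.22, 10.80, 11.10, 11.71 and 11.26 in Myd88-/- hosts, against 10.78, 10.05, 9.98, 9.89 and 10.75 in WT hosts. All 5 Myd88-/- arrays were above all 5 WT arrays, the nearest pair by 0.02, and no other member separated in this way (3.03% of all genes tested did). The difference was 0.93 ± 0.20, or 1.90-fold (adjusted p = 0.0425). Marco read 7.07, 6.19, 5.55, 5.69 and 5.40 in Myd88-/- hosts, against 7.35, 8.04, 7.90, 7.15 and 7.02 in WT hosts. Only the highest Myd88-/- array and the lowest WT array overlapped. The difference was -1.51 ± 0.30, or 2.85-fold (adjusted p = 0.0235). Mfge8 was called in 8 of 16 fits and Marco in 11 of 16. Leaving out 1 array gave adjusted p-values up to 0.135 for Mfge8 and 0.0786 for Marco. Neither was called without WT replicate 2, WT replicate 3, Myd88-/- replicate 3, Myd88-/- replicate 4 or Myd88-/- replicate 5, and Mfge8 was also lost without WT replicate 4 or Myd88-/- replicate 1.

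The other members overlapped between Myd88-/- and WT hosts. Mertk read 9.76, 9.19, 9.53, 9.43 and 9.33 in Myd88-/- hosts, against 9.25, 9.17, 9.02, 9.32 and 9.24 in WT hosts (0.25 ± 0.11, adjusted p = 0.365). Its partner Gas6 averaged 6.97 ± 0.42 in Myd88-/- hosts and 6.73 ± 0.15 in WT hosts (SD, n = 5 each). Cd163 averaged 6.55 ± 0.57 in Myd88-/- hosts and 6.12 ± 0.44 in WT hosts, and Lyve1 averaged 5.65 ± 0.51 in Myd88-/- hosts and 5.14 ± 0.82 in WT hosts. All these groups overlapped. Stab1 differed by 0.10 ± 0.12, with a 95% interval of -0.16 to 0.36. Folr2 read 9.12, 8.32, 8.49, 8.54 and 8.45 in Myd88-/- hosts, against 8.67, 8.49, 8.84, 8.31 and 8.51 in WT hosts. Replicate 1 of the Myd88-/- hosts stood above the rest of its group, and the difference of 0.02 ± 0.14 had a 95% interval of -0.29 to 0.33. Timd4 did not pass the filter in this experiment and read 2.29 to 2.43 in Myd88-/- hosts, against 2.12 to 2.67 in WT hosts. The median difference of the 9 measured members was 0.25, against 0.01 over all genes tested. Of the other lists, none of 17 recognition genes, 15 engulfment genes or 10 scavenger receptors was called by limma, while 4, 2 and 4 of them had an unadjusted p under 0.05, and their median differences were 0.08, -0.02 and -0.03. Of 17 resident macrophage genes 1 was called, Id3, a transcriptional regulator of resident macrophages (-0.79 ± 0.13), and the median was 0.11. Monocyte markers averaged 8.25 to 8.53 in Myd88-/- hosts, against 8.99 to 9.15 in WT hosts, with 3 of 5 lower: Ms4a4c (-1.01 ± 0.14), Ccr2 (-1.07 ± 0.19) and Plac8 (-0.81 ± 0.15). Dendritic cell markers averaged 4.12 to 4.24 in Myd88-/- hosts, against 4.32 to 4.62 in WT hosts, with 1 of 5 tested lower, Dpp4 (-0.47 ± 0.10). Of 2 B lymphocyte markers tested, Cd79b was lower (-0.56 ± 0.12). Macrophage markers averaged 10.68 to 10.75 in Myd88-/- hosts, against 10.73 to 10.89 in WT hosts, with none of 9 called by limma and 5 at an unadjusted p under 0.05. The part of these cells in the members' differences was not tested.

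In the sorted cells, most members were lower in population A than in population C. Averaged over the 4 genotypes, 7 of 10 members were lower in A and none was higher, against 21.3% of 16524 genes called lower and 11.1% called higher. Folr2 had the largest log2 difference, -2.48 ± 0.11 (5.58-fold lower, adjusted p = 7.88e-09). The receptor kinases followed, Mertk at -2.08 ± 0.14 (adjusted p = 3.23e-07) and Axl at -1.79 ± 0.14 (8.11e-07). Stab1 was at -1.53 ± 0.13 (1.81e-06) and Gas6 at -1.02 ± 0.13 (6.82e-05). Cd163 at -0.70 ± 0.16 (0.00429) and Lyve1 at -0.63 ± 0.14 (0.00253) had smaller differences. These 7 calls held in all 22 fits tried. Timd4 (-0.14 ± 0.08), Mfge8 (0.03 ± 0.19) and Marco (0.15 ± 0.08) were not called. The median of the 10 was -0.86, against 0.01 over all genes tested.

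Levels by array show how far the populations stood apart. Folr2 read 7.98 and 7.57 in A of double KO hosts, 8.6 and 9.06 in A of Myd88 cKO hosts, 6.77 and 6.38 in A of TNFR1-/- hosts, and 6.18 and 6.44 in A of WT hosts. In C it read 10.11 and 10.32 for double KO, 9.98 and 9.76 for Myd88 cKO, 10 and 9.62 for TNFR1-/-, and 9.32 and 9.72 for WT. All 8 A arrays were below all 8 C arrays. Mertk read 7.14 and 7.31 in A of double KO, 7.95 and 8.95 of Myd88 cKO, 6.65 and 6.07 of TNFR1-/-, and 7.30 and 6.77 of WT hosts. In C it stayed between 8.91 and 9.63 on all 8 arrays, and only 1 A array, of a Myd88 cKO host, reached into that range. Axl, the other receptor kinase, read 6.99 and 7.39 in A of double KO, 8.00 and 8.96 of Myd88 cKO, 6.89 and 6.47 of TNFR1-/-, and 8.13 and 7.74 of WT hosts. In C it read 9.12 to 9.61, above every A array. Stab1 likewise did not overlap, with 6.0 to 7.5 in A and 7.77 to 8.68 in C. Gas6, the ligand of both kinases, read 5.31 to 6.28 in A and 6.31 to 7.36 in C, at the 46.3 to 85.3 percentile of its arrays. A gap of 0.03 separated its highest A array from its lowest C array. Groups of 8 arrays that did not overlap in this direction were found for 4.86% of all genes tested and for 4 of 10 members: Axl, Gas6, Stab1 and Folr2.

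**Figure D2:**
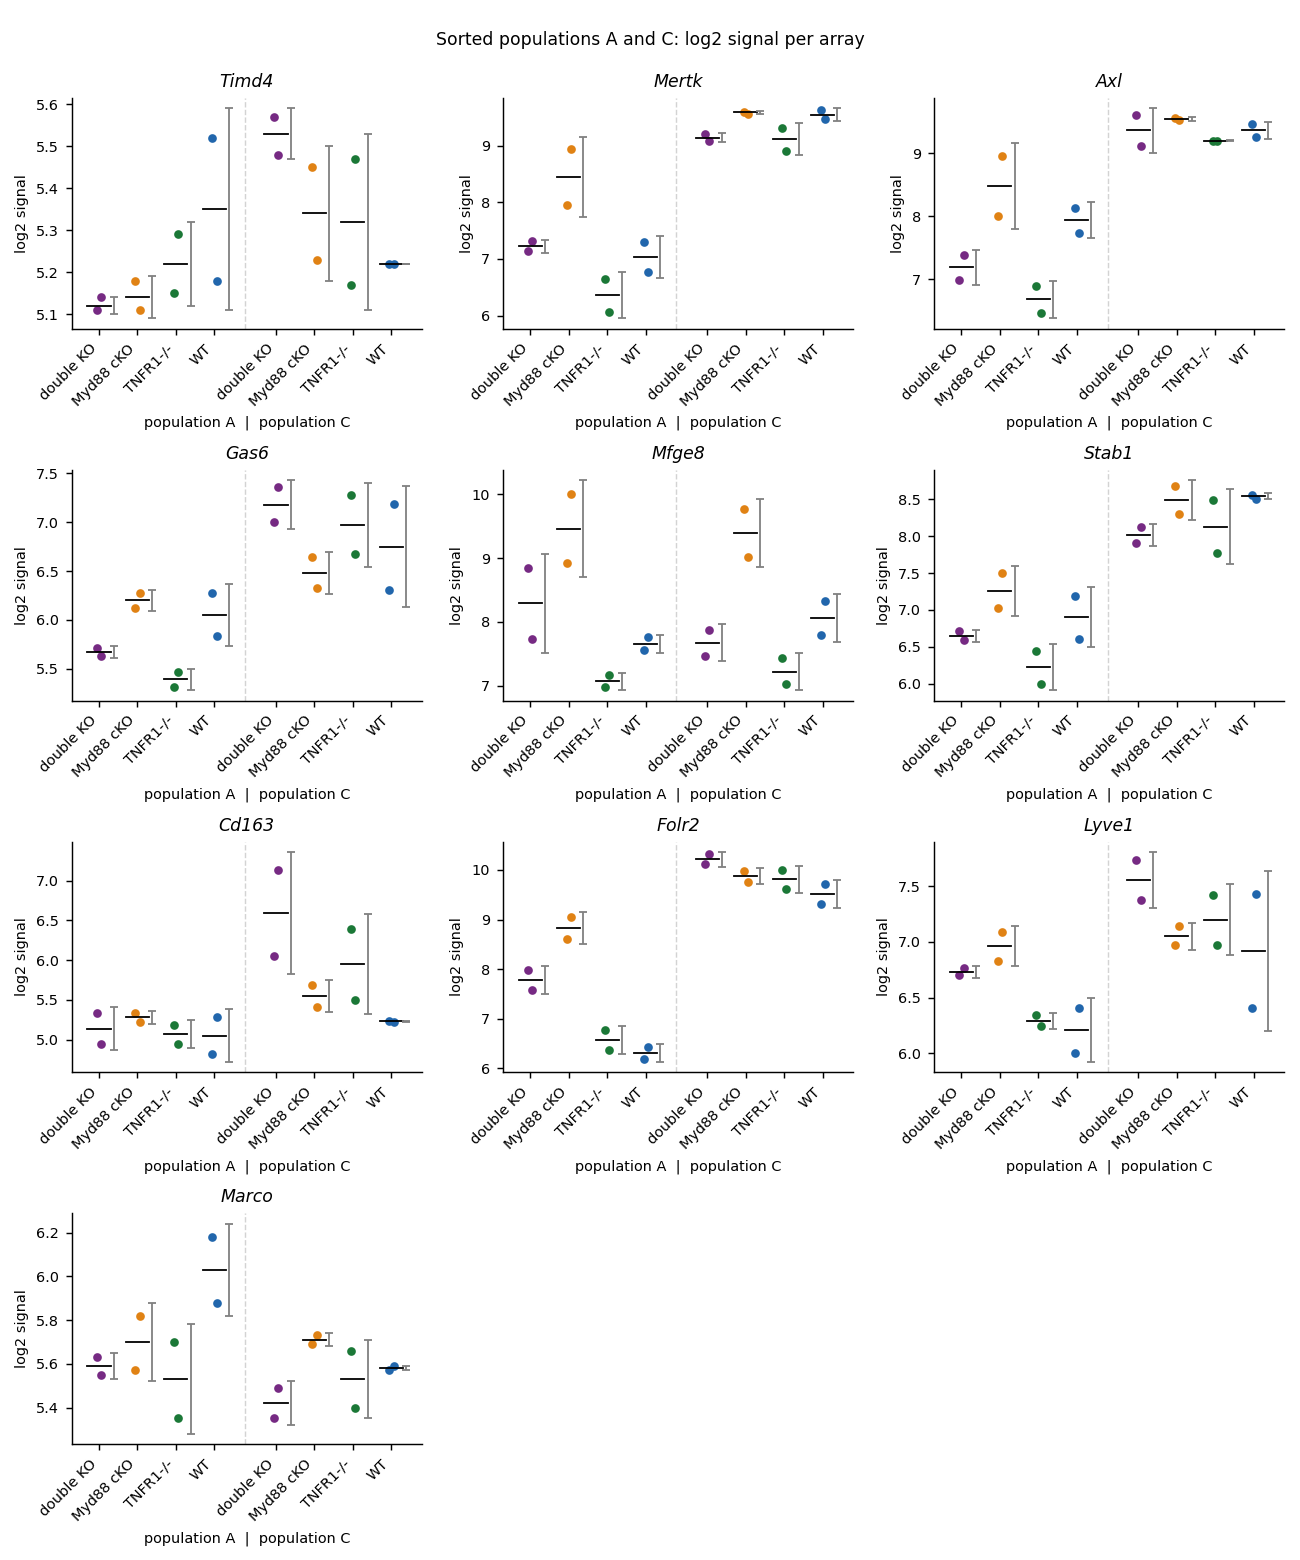
Log2 signal of the 10 members in sorted populations A (left of the dashed line) and C (right of it), by host genotype. Each point is 1 array, black lines are means of 2 arrays and grey bars are their SD, and each panel has its own y axis. Folr2, Axl and Stab1 lie lower in every A array than in every C array, while Folr2 in A is higher in double KO and Myd88 cKO hosts than in WT hosts.

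Cd163 and Lyve1 had smaller gaps. Cd163 read 4.82 to 5.33 in A, and in C 6.05 and 7.14 for double KO, 5.69 and 5.41 for Myd88 cKO, 6.39 and 5.50 for TNFR1-/-, and 5.24 and 5.22 for WT. It lay above the 40th percentile of its array on 13 of 16 arrays, so its A values are near the low end. Lyve1 read 6.0 to 7.09 in A and 6.41 to 7.74 in C. Mfge8 overlapped widely, with 6.98 to 10 in A and 7.02 to 9.77 in C. Timd4 read 5.11 to 5.52 in A and 5.17 to 5.57 in C, at the 41.1 to 56.2 percentile of its arrays. Marco read 5.35 to 6.18 in A and 5.35 to 5.73 in C, at the 48.2 to 68.6 percentile of its arrays.

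Within single genotypes, the number of members called lower in A was 6 in double KO hosts (3.72% of all genes were called lower), 2 in Myd88 cKO hosts (0.938%), 6 in TNFR1-/- hosts (10.1%) and 4 in WT hosts (9.92%). Folr2 and Stab1 were called in all 4. The Folr2 difference was -2.44 ± 0.22 in double KO, -1.04 ± 0.22 in Myd88 cKO, -3.23 ± 0.22 in TNFR1-/- and -3.21 ± 0.22 in WT hosts. For Mertk the values were -1.92 ± 0.28 in double KO, -1.13 ± 0.28 in Myd88 cKO (adjusted p = 0.0566), -2.75 ± 0.28 in TNFR1-/- and -2.52 ± 0.28 in WT hosts. Axl differed by -2.18 ± 0.27 in double KO, -1.06 ± 0.27 in Myd88 cKO (adjusted p = 0.0639), -2.52 ± 0.27 in TNFR1-/- and -1.42 ± 0.27 in WT hosts. Gas6 was called in double KO (-1.51 ± 0.27) and TNFR1-/- hosts (-1.59 ± 0.27), and differed by -0.28 ± 0.27 in Myd88 cKO and -0.69 ± 0.27 in WT hosts. Cd163 was called only in double KO hosts (-1.46 ± 0.32, adjusted p = 0.0164) and Lyve1 only in TNFR1-/- hosts (-0.91 ± 0.27, adjusted p = 0.0422). Without C replicate 2 of double KO hosts, the Cd163 difference was -0.91 (adjusted p = 0.196) and Gas6 (0.069) and Stab1 (0.0798) also lost their calls. The Cd163 call in double KO hosts was also lost in a fit of only the arrays compared (adjusted p = 0.103). Its difference was -1.65 without A replicate 1 of those hosts and -1.27 without A replicate 2. Lyve1 in TNFR1-/- hosts was called in 11 of 23 fits and reached an adjusted p of 0.272 without C replicate 1 of those hosts. The Axl call in WT hosts was lost with array weights (adjusted p = 0.0769). Without C replicate 1 of WT hosts, the Axl difference was -1.33. The 2 calls in Myd88 cKO hosts depended on single arrays: none remained without either C array or without A replicate 1 of that genotype, and 4 were called without A replicate 2 or without either A array of WT hosts. Folr2 alone was also lost without either C array of double KO hosts (adjusted p = 0.0516).

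**Figure D3:**
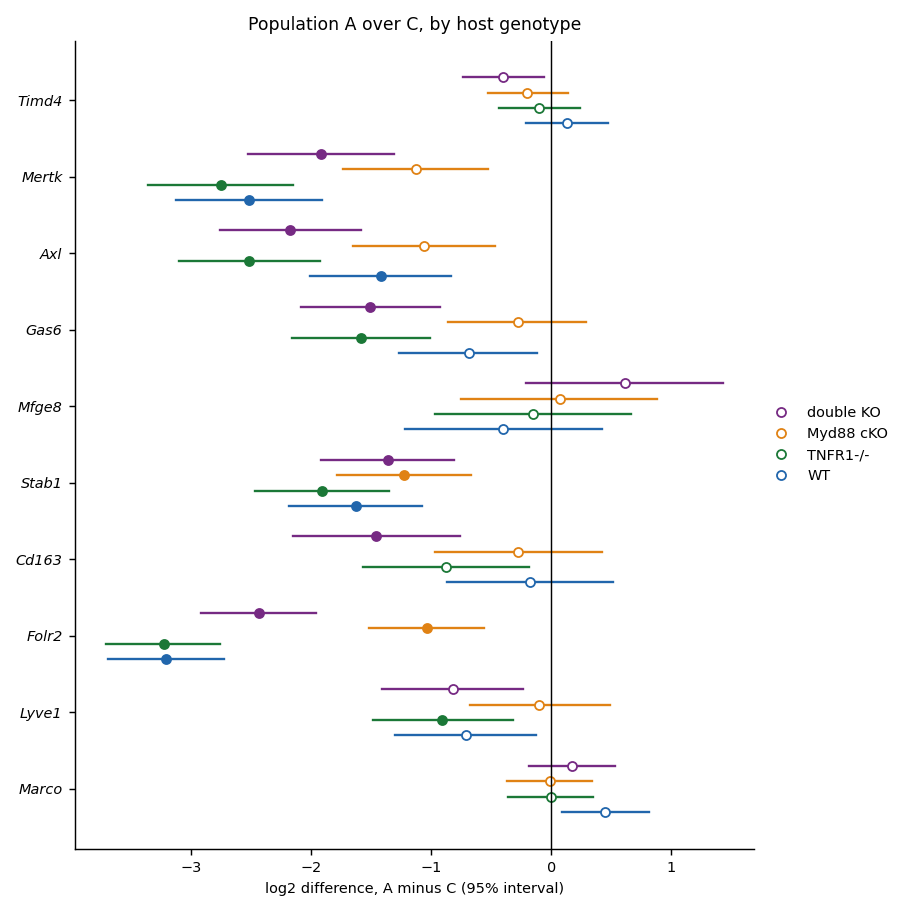
Log2 difference of population A minus population C for each member, with its 95% interval, in double KO, Myd88 cKO, TNFR1-/- and WT hosts. Filled points are called at an adjusted p under 0.05 and open points are not. Folr2 ranges from -3.23 in TNFR1-/- to -1.04 in Myd88 cKO hosts.

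The wider lists held calls in both directions, more of them lower in A. Averaged over genotypes, 3 of 19 other recognition genes were higher in A and 10 lower, with a median of -0.35. The complement genes C1qa (-2.61 ± 0.12), C1qc (-2.56 ± 0.17) and C1qb (-2.21 ± 0.17), whose products coat apoptotic cells, had the smallest adjusted p. Of 16 engulfment genes, 2 were higher in A and 8 lower (median -0.27), led by the lipid sensor Pparg (-1.36 ± 0.11), the cholesterol exporter Abca1 (-1.57 ± 0.14) and the lysosomal lipase Lipa (-1.54 ± 0.16). Of 15 resident macrophage genes, 2 were higher and 9 lower (median -0.23), with Cbr2 at -2.29 ± 0.10 and the transcription factor Maf at -1.44 ± 0.10, while Adgre4 was higher by 3.15 ± 0.17. Of 10 scavenger receptors, 1 was higher and 4 lower (median -0.09), led by Cxcl16 (-1.75 ± 0.18), Scarb2 (-0.94 ± 0.11) and Cd68 (-1.17 ± 0.15). Macrophage markers averaged 9.12 to 10.37 in A and 10.44 to 10.81 in C, with 7 of 9 lower in A. C1qa, Mrc1 and Cd68 are among the genes that stand both there and on the lists above. Neutrophil markers averaged 5.51 to 6.27 in A and 4.77 to 4.98 in C. Neutrophil markers had 7 of 9 higher in A, blood endothelium 4 of 9 and fibroblasts 5 of 8. Of 10 neutrophil markers measured, 5 to 9 lay above the 40th percentile on the A arrays, against 2 to 5 on the C arrays. Of 10 blood endothelium markers measured, it was 5 to 10 in A, against 5 to 7 in C. Some may thus have passed the filter only through A, which would build in a higher level there. Fibroblast markers averaged 5.75 to 6.65 in A and 5.57 to 5.78 in C. Monocyte markers averaged 8.61 to 9.38 in A and 7.46 to 8.52 in C, and the list holds Ly6c2, a gene of the antigen used in the gate. Dendritic cell markers averaged 5.92 to 6.12 in A and 6.15 to 6.77 in C, with 3 of 7 lower in A, Ccr7 (-2.10 ± 0.14) ahead. Peritoneal resident macrophage markers averaged 5.83 to 6.30 in A and 5.06 to 5.44 in C, with 2 of 6 tested higher in A, Alox15 (4.77 ± 0.22) and Selp (0.73 ± 0.10). The part of these cells in the members' differences was not tested.

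Loss of Myd88 by Tie2-Cre went with higher Folr2, Mertk and Mfge8 in population A. Averaged over TNFR1 status, 4 arrays against 4, these 3 of 10 members were called higher and none lower, against 4.19% of all genes called higher. Folr2 rose by 1.86 ± 0.16 (adjusted p = 0.00021), with all 4 Myd88-deficient arrays above the other 4, as for 4.44% of all genes tested. Mfge8 rose by 1.51 ± 0.27 (adjusted p = 0.00827). It read 8.84 and 7.73 in double KO and 8.92 and 10 in Myd88 cKO, against 6.98 and 7.16 in TNFR1-/- and 7.56 and 7.76 in WT hosts, so the lowest deficient array overlapped with the WT range. Mertk rose by 1.14 ± 0.20 (adjusted p = 0.00757). Its groups also overlapped, at 7.14 to 8.95 on the Myd88-deficient arrays, against 6.07 to 7.30 on the other 4. Like Folr2, Lyve1, the hyaluronan receptor gene, did not overlap, at 6.70 to 7.09 in the 4 Myd88-deficient arrays, against 6.0 to 6.41 in the other 4. Yet its difference of 0.60 ± 0.19 was not called (adjusted p = 0.0864). The median difference of the 10 was 0.46, against 0.01 over all genes tested. In a fit of only the A arrays compared, 1 of the 3 kept its call, Folr2. Without A replicate 2 of Myd88 cKO hosts, Mfge8 gave an adjusted p of 0.0501.

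Against WT hosts alone, 3 members were called in A of Myd88 cKO hosts (2.47% of all genes were called higher) and 1 in A of double KO hosts (4.33%). These comparisons share the WT arrays. Folr2 rose by 2.52 ± 0.22 in Myd88 cKO hosts, or 5.74-fold (adjusted p = 0.000363), which held in 23 of 23 fits, and by 1.46 ± 0.22 in double KO hosts (adjusted p = 0.0105). The double KO call was lost with array weights (adjusted p = 0.189) and in a fit of only the arrays compared (adjusted p = 0.393). Without A replicate 1 of that genotype, the Folr2 difference was 1.26. Mfge8 rose by 1.8 ± 0.38 in Myd88 cKO hosts (adjusted p = 0.0274) and differed by 0.62 ± 0.38 in double KO hosts. Mertk rose by 1.42 ± 0.28 in Myd88 cKO hosts (adjusted p = 0.0213) and differed by 0.19 ± 0.28 in double KO hosts. With only the Myd88 cKO and WT arrays of A, neither Mertk (adjusted p = 0.213) nor Mfge8 (0.13) was called. Array weights also removed both calls (0.25 and 0.314). The SD of Mertk was 0.71 and 0.37 in A of Myd88 cKO and WT hosts, against 0.02 and 0.11 in C. The spread shared by all sorted groups may thus understate that of Mertk in A. Without A replicate 2 of Myd88 cKO hosts, neither Mertk (adjusted p = 0.154) nor Mfge8 (adjusted p = 0.188) was called, and Mertk was also lost without A replicate 2 of WT hosts (adjusted p = 0.055). In the Myd88 cKO comparison, the 3 genes of smallest adjusted p among other recognition genes were C1qa (2.29 ± 0.25), C1qc (2.77 ± 0.33) and C1qb (2.21 ± 0.35), with 5 of 19 higher and a median of 0.28. Abca1 (1.64 ± 0.27) and Lipa (1.61 ± 0.32) were the 2 of 16 engulfment genes that rose, with a median of 0.17. Of 15 resident macrophage genes 4 rose, with Igf1 (2.43 ± 0.26), Pf4 (2.80 ± 0.38) and the mannose receptor gene Mrc1 (2.43 ± 0.38) ahead and a median of 0.04, and of 10 scavenger receptors none was called by limma, with 2 at an unadjusted p under 0.05 and a median of 0.19. C1q proteins coat apoptotic cells, Abca1 exports cholesterol and Lipa breaks down lysosomal lipid. Macrophage markers averaged 10.01 to 10.37 in A of Myd88 cKO hosts, 9.53 to 9.73 of double KO and 9.23 to 9.74 of WT hosts, with C1qa and Mrc1 of the 9 called higher in Myd88 cKO. Blood endothelium markers averaged 5.94 to 6.18 in A of Myd88 cKO hosts and 5.68 to 5.69 in A of WT hosts, and markers of T lymphocytes and EG7 cells 7.27 to 7.31 in A of double KO hosts and 6.47 to 6.65 of WT hosts. The part of these cells in the rises was not tested.

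In population C none of the 10 members was called for Myd88 cKO over WT (background 0.0121%), for double KO over WT (0.309%) or for Myd88 loss averaged over TNFR1 status (0.0182%), where limma gave 1, 3 and 2 members at an unadjusted p under 0.05, against 3.85%, 6.17% and 4.67% of all genes. Myd88 itself was called in C for Myd88 cKO over WT (-1.99 ± 0.27, adjusted p = 0.0464) and for averaged loss (-1.75 ± 0.19, adjusted p = 0.0036). It was not called there for double KO over WT (-1.13 ± 0.27, adjusted p = 0.129). Mfge8 read 9.77 and 9.02 in C of Myd88 cKO, against 7.79 and 8.33 of WT hosts (1.33 ± 0.38, adjusted p = 0.997). In double KO hosts it read 7.47 and 7.88, between the WT arrays and below. Folr2 differed by 0.38 ± 0.16 on average, with a 95% interval of 0.04 to 0.72. Cd163 in double KO hosts differed by 1.37 ± 0.32 from WT (adjusted p = 0.135) and was called without C replicate 1 of double KO hosts (adjusted p = 0.0294). Whether Myd88 loss acted differently in A and C was tested directly, and no member was called by limma, nor was any of the 16524 genes (0%). The Folr2 difference between populations was 1.48 ± 0.22 (adjusted p = 0.064) and that of Mertk 1.11 ± 0.28 (adjusted p = 0.277). These were 2 of 10 members with an unadjusted p under 0.05 (9.27% of all genes), and Folr2 was called without A replicate 2 of WT, A replicate 1 of TNFR1-/-, A replicate 1 of Myd88 cKO or A replicate 2 of double KO hosts (adjusted p = 0.0288 to 0.0488). No member was called for a difference of the double KO effect between A and C (background 0.0363%), with 3 members at an unadjusted p under 0.05 (10.7% of all genes).

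**Figure D4:**
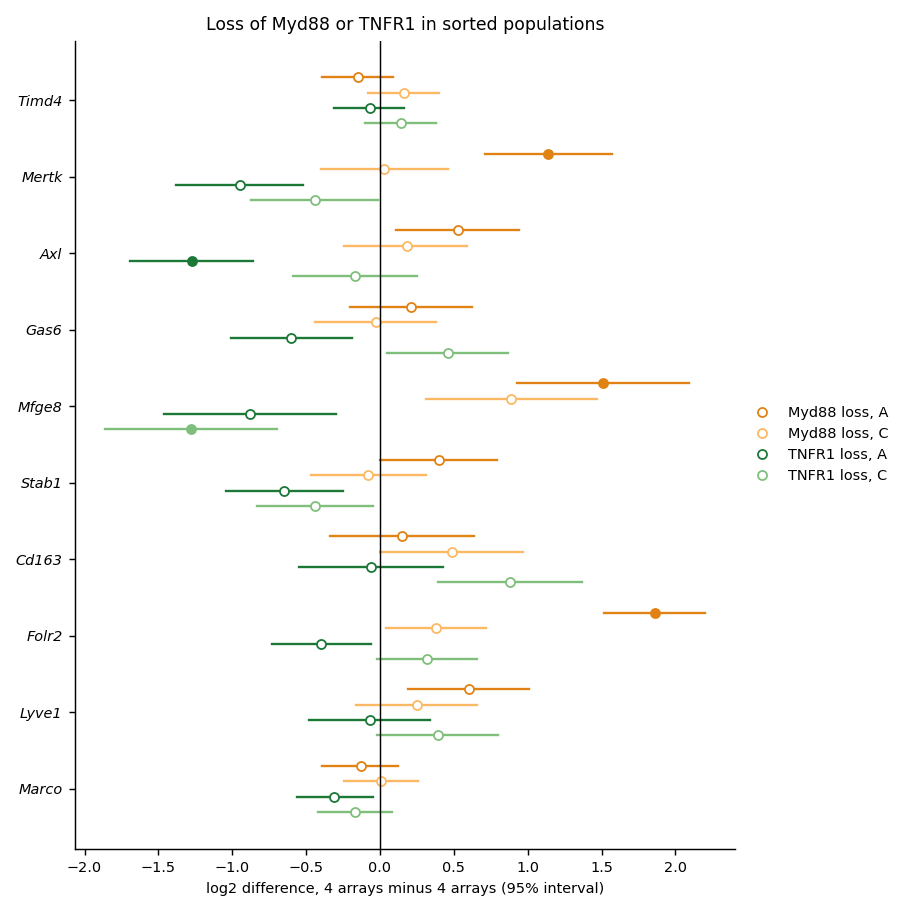
Log2 difference with its 95% interval for loss of Myd88 (averaged over TNFR1 status) and loss of TNFR1 (averaged over Myd88 status) in populations A and C, 4 arrays minus 4 arrays each. Filled points are called at an adjusted p under 0.05. Folr2, Mfge8 and Mertk are filled and higher for Myd88 loss in A, and Axl in A and Mfge8 in C are filled and lower for TNFR1 loss.

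For loss of TNFR1, Axl was the member called in A when averaged over Myd88 status, against 0.139% of genes called lower, and 7 of 10 had an unadjusted p under 0.05, against 13.8% of all genes. Axl read 6.89 and 6.47 in TNFR1-/- and 6.99 and 7.39 in double KO, against 8.00 and 8.96 in Myd88 cKO and 8.13 and 7.74 in WT hosts. The 4 TNFR1-deficient arrays were all lower, and the difference was -1.27 ± 0.19, or 2.42-fold (adjusted p = 0.0271). The call held in 15 of 23 fits and was lost in a fit of only the A arrays (adjusted p = 0.343) and without any of A replicate 1 of WT, A replicate 2 of TNFR1-/-, A replicate 2 of Myd88 cKO or A replicate 1 of double KO hosts (adjusted p = 0.0745 to 0.151), or either C array of Myd88 cKO hosts (0.0567). Mertk differed by -0.95 ± 0.20 (adjusted p = 0.0865) and Gas6 by -0.60 ± 0.19 (adjusted p = 0.198), and Gas6 did not overlap, at 5.31 to 5.71 in TNFR1-deficient arrays, against 5.83 to 6.28 in the other 4. The groups were apart in this direction for 1.57% of all genes tested. In A, blood endothelium markers averaged 5.37 to 5.64 on the TNFR1-deficient arrays, against 5.68 to 6.18 on the other 4, with 2 of 9 tested lower, Cdh5 (-1.55 ± 0.13) and Emcn (-0.86 ± 0.15). Lymphatic endothelium markers averaged 5.10 to 5.45 on the TNFR1-deficient arrays, against 5.50 to 5.71 on the other 4. The part of these cells in the Axl difference was not tested. For TNFR1-/- over WT in A no member was called (background 0.654%), with Axl at -1.26 ± 0.27 (adjusted p = 0.051) and 5 members at an unadjusted p under 0.05 (18.7% of all genes). In C, Mfge8 was the 1 member called when averaged over Myd88 status (0.617% of all genes were called lower). It read 7.43 and 7.02 in TNFR1-/- and 7.47 and 7.88 in double KO, against 9.77 and 9.02 in Myd88 cKO and 7.79 and 8.33 in WT hosts. The difference was -1.28 ± 0.27 (adjusted p = 0.0364), the groups overlapped, and the call was lost without any 1 C array except replicate 2 of Myd88 cKO hosts (adjusted p = 0.0675 to 0.224). In C, dendritic cell markers averaged 6.68 to 6.77 on the TNFR1-deficient arrays, against 6.15 to 6.29 on the other 4, with 2 of 7 higher, Ccr7 (1.88 ± 0.20) and Dpp4 (0.65 ± 0.14). Monocyte markers averaged 8.20 to 8.52 on the TNFR1-deficient arrays, against 7.46 to 8.13 on the other 4. The part of these cells in the Mfge8 difference was not tested. For TNFR1-/- over WT in C none was called (0.0726%), with 2 at an unadjusted p under 0.05 (4.73% of all genes). The Axl difference between populations was -1.10 ± 0.27 (adjusted p = 0.282) and the Gas6 difference -1.06 ± 0.27 (adjusted p = 0.296). No member was called for that difference between A and C (background 0.103%), and 4 had an unadjusted p under 0.05 (6.5% of all genes).

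Genes with the most similar pattern over the 16 sorted arrays are given as a description by Pearson's r, and these arrays share the split into A and C. For Folr2 they were Ccl8 (0.972), Mrc1 (0.971) and F7 (0.970). For Mertk they were Akr1a1 (0.988), Plxna1 (0.988) and Anxa4 (0.985), and for Axl Ddhd1 (0.974), Myof (0.973) and P2ry6 (0.972). Stab1 was closest to P2rx4 (0.972), Abhd12 (0.971) and Apoe (0.969), Gas6 to Elk1 (0.929), Selenop (0.917) and Cbr2 (0.907), and Cd163 to Cd209e (0.940), Gfra2 (0.927) and Plet1 (0.912). Lyve1 was closest to Memo1 (0.894), Pank3 (0.888) and Serpinb9 (0.881). Mfge8 was closest to H2-M2 (0.872), Mexis (0.867) and Parp16 (0.841), Marco to Pnpla3 (0.916), Fgd5 (0.884) and Efr3b (0.878), and Timd4 to Hivep1 (0.873), Enoph1 (0.847) and Bloc1s6 (0.837). Among the members themselves, Mertk had an r of 0.97 with Stab1, 0.96 with Axl and 0.93 with Folr2. Within the 8 A arrays Mertk and Folr2 had an r of 0.83, and within the 8 C arrays -0.37. Folr2 and Lyve1 kept a positive r in both, 0.95 within A and 0.76 within C. Mfge8 had an r with Folr2 of 0.90 within A and 0.07 within C.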

How the data were processed

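RNA (100 ng per array) of bead-enriched cells was hybridised to 16 HT_MG-430_PM arrays and of sorted cells to 16 Mouse Gene 2.0 ST arrays. The authors deposited log2 signals, summarised by RMA with Affymetrix Expression Console 1.1 according to the submitters' processing notes. RMA sets arrays to 1 distribution, which removes a global change in signal. Array medians differed between experiments (3.84 to 3.93, 2.95 to 3.03 and 5.31 to 5.50), so each experiment was tested apart, and arrays of the sort shared 1 estimate of spread (8 residual degrees of freedom). With arrays, precision is limited by their number.

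On the 2 chips, 28898 of 45141 and 23521 of 41345 probe sets carried 1 symbol, 551 and 1814 several, and 15692 and 16010 none. Genes above the 40th percentile of the array in at least 3 (tumour models), 5 (hosts) or 2 (sort) arrays were tested two-sided by limma 3.58.1 (R 4.3.3), which was also tested on simulated data. A listed gene that was low in 1 group could pass through the other group alone, so its call may be built into the filter. An array left alone in its group by a leave-one-out was assumed to vary like the others. Alternatives were no filter, averaged probe sets, a second quantile normalization, an intensity trend, array weights, a replicate block, the compared arrays alone, and leaving out each array. Named genes were all members, up to 3 called genes of smallest adjusted p on each of 4 lists (20 recognition, 20 engulfment, 20 resident and 11 scavenger genes) and the 3 of highest correlation with each member. Members and lists were chosen with earlier results of these data known, and the tests of averaged Myd88 or TNFR1 loss between A and C were added after values were seen. Whether replicate numbers pair arrays was not settled. Deviations of same-numbered arrays correlated above 0.1 in 1 of 3 (tumour models), 3 of 5 (hosts) and 16 of 56 pairs (sort). In the hosts the median correlation was 0.14 for same-numbered arrays and -0.04 for others. With 2 arrays per group, deviations mirror each other, so the sort cannot decide this. Glioma arrays were not analysed here.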

Additional observations from a re-analysis of the deposited data

Results flagged for a closer look

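Folr2 on replicate 1 of the Myd88-/- hosts read 9.12, and the next highest array of that group read 8.54. The gap took up 0.73 of the group's range, above Dixon's 95% critical value of 0.71 for 5 arrays. This was 1 of 18 member groups checked, and chance flags about 1 in 20. Replicate 1 also had the highest Mertk, Cd163, Lyve1 and Marco values of its group. No member was called for a difference of an effect between populations A and C.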

How the results depend on the processing

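Counts of called members moved as follows, and those for neuroblastoma over EG7 include Timd4, whose call was built into the filter. With array weights they were 5 of 9 for neuroblastoma over EG7 (3 in the reported fit), 4 for A over C in Myd88 cKO (2), 1 for Myd88 cKO in A (3), 0 for double KO in A (1) and 0 for averaged TNFR1 loss in A (1). After renewed quantile normalization they were 1 for A over C in Myd88 cKO, 1 for TNFR1-/- in A (0), 2 for double KO in A, 2 for averaged TNFR1 loss in A and 0 for averaged TNFR1 loss in C (1). With only the arrays compared they were 1 for Myd88 cKO in A, 0 for double KO in A, 0 for averaged TNFR1 loss in A and 1 for averaged Myd88 loss in A (3). The replicate block, which takes same-numbered arrays as pairs, left 1 call for Myd88-/- over WT (2), Marco, as Mfge8 reached an adjusted p of 0.0604. For neuroblastoma over EG7 it left 2 calls, Timd4 and Marco (0.00597), without Gas6 (0.0505) and Mfge8 (0.0767), and it moved no other count by over 1.5 times. Leaving out 1 array gave 1 to 6 for neuroblastoma over EG7, 0 to 2 for Myd88-/- over WT, 0 to 4 for A over C in Myd88 cKO, 3 to 7 for A over C in double KO, 0 to 2 for TNFR1-/- in A, 1 to 3 for Myd88 cKO in A, 0 to 1 for double KO in A and in C, 0 to 3 and 0 to 1 for averaged TNFR1 loss in A and C, and 0 to 1 for averaged Myd88 loss between A and C. The 7 calls of A over C averaged over genotypes held throughout, and no called member changed direction in any fit. The cause of these moves was not tested.

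Over all genes, counts of calls ranged, across settings, from 704 to 2639 for neuroblastoma over EG7 (1850), 86 to 301 for Myd88-/- over WT (176), 301 to 3429 for A over C in WT (2223), 680 to 3197 in TNFR1-/- (2086), 17 to 1142 in Myd88 cKO (326) and 266 to 1428 in double KO (902). They ranged from 1 to 1750 for TNFR1-/- in A (108), 8 to 1516 for Myd88 cKO in A (525), 0 to 2345 for double KO in A (950), 0 to 677 for averaged TNFR1 loss in A (30), 72 to 457 for it in C (180), and 37 to 2361 for averaged Myd88 loss in A (772). In C they ranged from 2 to 57 for TNFR1-/- (12), 0 to 41 for Myd88 cKO (2), 7 to 130 for double KO (51) and 0 to 31 for averaged Myd88 loss (3). Between A and C they ranged from 2 to 97 for the double KO effect (6), 0 to 15 for averaged Myd88 loss (0) and 8 to 52 for averaged TNFR1 loss (17). Signals near the 40th percentile of the array, as for Cd163 in A, or below it, as for Timd4 in EG7, leave small differences undetectable.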
